A study of Rattus norvegicus with 24 samples.

Results

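The lungs of rats given 20 mg/mL whole-cigarette smoke condensate (WCSC) for 12 days were compared with those given the same concentration for 6 days. The comparison rests on 6 of the 24 libraries of the series, 3 at each time, chosen by their labelled concentration and day. Every gene in the count files was a candidate, and 11421 of 16881 gene symbols passed the filter on low counts and were tested. The whole series holds 8 groups of 3 rat lung libraries, namely controls and lungs given 5, 10 or 20 mg/mL WCSC, each at 6 and 12 days. WCSC is the material collected from the smoke of whole cigarettes, and the comparison asks how the lungs differ after a longer exposure at the top concentration. All animals are labelled wild type (WT). The sources used here do not give strain, sex, age, the route of exposure or what the controls received. Nothing in the labels says that a group's 3 replicates are 3 rats, so p-values here cover only the spread between libraries, which may be technical. Age and handling may differ between the days as exposure length does, and at 20 mg/mL these cannot be told apart. The control, 5 mg/mL and 10 mg/mL lungs at the same days are therefore given beside the main results.

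The alveolus, where gas exchange takes place, is lined by flat type I cells and by type II cells, which make surfactant, the lipid and protein film that keeps the air space open. Alveolar macrophages take up inhaled particles and used surfactant, and when they are loaded with lipid they express genes for lipid binding, storage and lysosomal digestion. Cells that sense interferon switch on a shared set of antiviral and antigen-presenting genes through transcription factors that bind short DNA elements upstream of those genes.

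The 6 libraries held 4.80e+06 to 9.17e+06 counts, and levels below are CPM, the counts scaled to a common library size after TMM scaling, which evens out differences in composition. Each was lung by its markers. The type II surfactant gene Sftpc stood at 9289.8, 3249 and 10925 CPM in 12-day replicates 1, 2 and 3 and at 11344, 14251 and 8706 CPM in 6-day replicates 1, 2 and 3, an order kept for all values below. The type I gene Ager stood at 6956, 1954 and 6050.4 CPM at 12 days and 4769.9, 7639 and 3325 CPM at 6 days. The libraries also carried unequal amounts of other tissue. The 12 heart muscle genes that passed the filter, of 18 in the list, summed to 64.3, 3574 and 33.3 CPM at 12 days and 74.5, 22.2 and 227 CPM at 6 days, against 41.6 to 170.3 CPM in the other 18 libraries of the series. Myl7, an atrial myosin light chain, had 0, 423 and 0 CPM at 12 days and 0, 0 and 21.4 CPM at 6 days. Replicate 2 at 12 days was thus the highest of all 24 libraries in heart muscle genes, and replicate 3 at 6 days the next. Replicate 2 at 12 days also had the highest mean log2 level of all 24 in the club and goblet secretory genes and in the ciliated cell genes, and the lowest Sftpc and Ager of the 6, while replicate 2 at 6 days had the lowest mean level of all 24 in both airway lists. Where a log2 fold change or list median below moved by over 1.5 times and by 0.1 or more without both 12-day replicate 2 and 6-day replicate 3, its value without both libraries stands beside it. The plot of tissue lists by library shows where they stand.

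**Figure D1:**
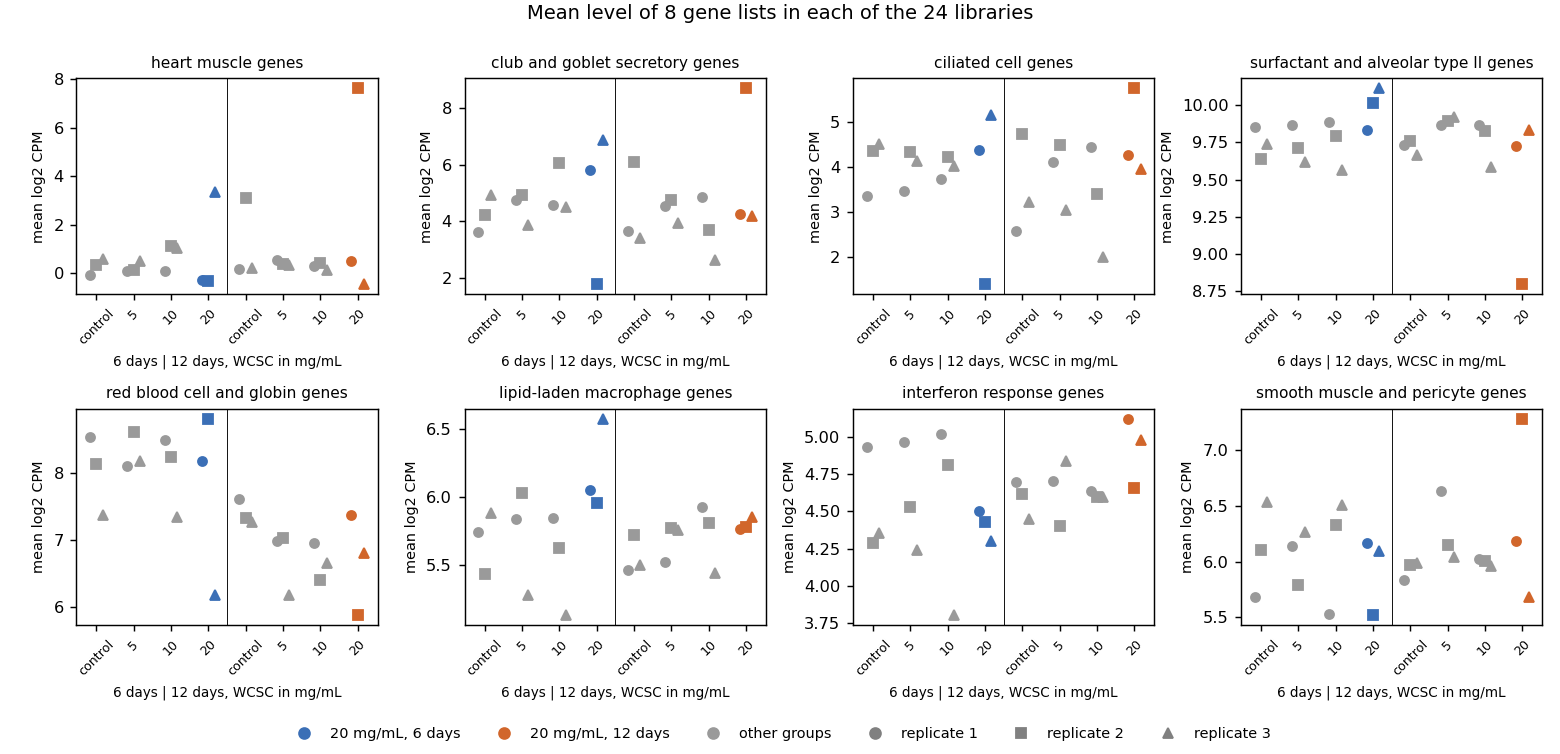
Mean log2 CPM of the members of 8 gene lists (vertical axes) in each of the 24 libraries, by WCSC concentration and day (horizontal axes), with 20 mg/mL libraries coloured and the marker shape giving the replicate number. Replicate 2 at 12 days stands far above the other 5 coloured libraries in heart muscle genes and below them in surfactant genes, whereas all 3 12-day libraries lie above all 3 6-day libraries in interferon response genes and below them in lipid-laden macrophage genes.

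No gene passed the test between 12 and 6 days at 20 mg/mL. The edgeR quasi-likelihood test called 0 of 11421 genes (0%) at an adjusted p under 0.05, and the smallest adjusted p was 0.564. DESeq2 and limma voom with quality weights also called 0. At an unadjusted p under 0.05, edgeR listed 711 genes (6.23%), of which 346 (3.03%) were higher and 365 (3.2%) lower at 12 days, DESeq2 listed 790 and voom 580. In 541 genes (4.74%) each 12-day library lay above each 6-day library, and in 564 (4.94%) each lay below, 1105 genes (9.68%) in all. The values that follow are therefore levels and estimated differences, none of which is a call. A log2 fold change (log2 FC) is positive where 12 days was higher, its standard error (SE) comes from the edgeR fit, and so does each adjusted p.

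The interferon response genes as a list were higher at 12 days. Of 26 members tested, 21 had a higher estimate, and the list's median log2 FC was 0.45, beside 0.003 for all genes. The groups did not overlap in 7 members, all higher at 12 days, whereas 4.74% of all genes were so, and 4 members were higher at an unadjusted p under 0.05, whereas 3.03% of all genes were. None passed adjustment. Between the same days the list's median was -0.01 in controls, -0.10 at 10 mg/mL and 0.10 at 5 mg/mL. It remained between 0.36 and 0.54 when each of the 6 libraries was left out in turn, and was 0.44 without both 12-day replicate 2 and 6-day replicate 3. The members summed to 2073, 1943 and 2371 CPM at 12 days and 1668, 1578 and 1235 CPM at 6 days, without overlap. Ifi27, whose values are given below, made up a large part of each sum. It is also among the 7 members without overlap, so the sums do not describe the list as a whole. The choice of this list was made with earlier results of these data known.

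Most of these promoters that could be searched hold the element known for interferon control, and 3 are shown for members whose groups did not overlap. Of the 26 tested members, 20 were matched by symbol to the RefSeq promoter table (build GRCr8), and the 250 bases before each start were searched on both strands for GAAANNGAAA, the core of the interferon-stimulated response element, in which overlapping matches were counted. It occurred in 14 of the 20 (70%), in 3.41% of all 33469 promoters in the table and in 2.74% of the 9062 promoters of genes tested. Mx1, whose groups also did not overlap, was among the 6 without a match. A match is a description of the letters and not evidence of binding. The list was made of known interferon response genes, so its share says nothing about the difference between the days. The sequences run 5′ to 3′ on the strand of the gene, and capitals mark the matches, which read TTTCNNTTTC where the element lies on the opposite strand.
Ifi44, chr2:243303841-243304090, minus strand: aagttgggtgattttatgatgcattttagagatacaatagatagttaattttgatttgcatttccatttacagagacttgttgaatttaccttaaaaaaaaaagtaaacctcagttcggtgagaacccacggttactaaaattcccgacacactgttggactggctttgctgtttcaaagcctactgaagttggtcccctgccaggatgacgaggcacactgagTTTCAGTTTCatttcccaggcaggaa
Oas1b, chr12:41395853-41396102, minus strand: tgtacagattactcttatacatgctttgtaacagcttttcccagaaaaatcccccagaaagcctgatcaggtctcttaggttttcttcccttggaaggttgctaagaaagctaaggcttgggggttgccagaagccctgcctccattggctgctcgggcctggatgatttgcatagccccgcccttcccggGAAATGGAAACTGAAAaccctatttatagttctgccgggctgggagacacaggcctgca
Ifi27, chr6:128355062-128355311, plus strand: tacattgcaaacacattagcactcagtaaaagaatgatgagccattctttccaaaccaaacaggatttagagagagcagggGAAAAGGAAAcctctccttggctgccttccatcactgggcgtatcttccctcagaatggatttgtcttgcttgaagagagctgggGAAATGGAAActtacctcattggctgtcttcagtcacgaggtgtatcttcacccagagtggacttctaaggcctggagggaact
The single match of Ifi44 lay 26 bases before the start, the nearer match of Oas1b, which overlaps another, 53 bases before it, and the nearer of the separate pair in Ifi27 84 bases before it.

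Ifi44, an interferon-induced protein, stood at 60, 43.3 and 55 CPM at 12 days and 31.9, 20.4 and 31.3 CPM at 6 days. Every 12-day library was above every 6-day library, with a log2 FC of 0.93 (SE 0.27) and adjusted p = 0.564. The control lungs held 42.1 ± 14.2 CPM (SD, n = 3) at 6 days and 40.4 ± 9.62 CPM at 12 days, so the 6-day libraries at 20 mg/mL lay below both control means and the 12-day libraries above both. The antiviral GTPase gene Mx1 had 66.7, 56 and 73 CPM at 12 days and 37.6, 39.2 and 31.6 CPM at 6 days, and its log2 FC was 0.85 (SE 0.42) with adjusted p = 0.817. Its groups did not overlap either. Its relative Mx2 had 54.8, 27.6 and 52.6 CPM against 27.8, 29.7 and 9.44 CPM, where 1 12-day library lay within the 6-day range, with a log2 FC of 1.02 (SE 0.34) and adjusted p = 0.599. Isg15, a ubiquitin-like protein attached to other proteins after interferon, had 110.5, 65.8 and 108 CPM against 44.7, 63 and 14 CPM and a log2 FC of 1.22 (SE 0.53). Its lowest 12-day library and highest 6-day library were close, although the groups did not overlap. Oas1b, of the family that makes the activator of an antiviral RNase, had 15.6, 7.67 and 8.79 CPM against 4.87, 5.79 and 3.96 CPM. Ifi27 had 799, 966 and 1148 CPM against 739, 598 and 408 CPM, and the guanylate-binding protein gene Gbp2 had 164, 154 and 170.2 CPM against 148, 127 and 105 CPM. Oas1i, the remaining member without overlap, was scarce, at 2.97, 4.41 and 2.93 CPM against 1.83, 2.05 and 2.17 CPM. Isg15, Ifi27, Gbp2 and Oas1i were named after their values were seen. Counting was not stated to use strand, and Oas1a, Oas1b and Oas1i are close relatives, as are Mx1 and Mx2, so reads may be shared among them.

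RT1-T24-2 and RT1-N3, of the MHC class I family, were among the leading genes. Members of that family can show peptides to T cells and can be induced by interferon, which was not tested for these 2. No list of MHC class I genes was made, so these 2 do not describe the family. RT1-T24-2 stood at 9.5, 11.7 and 22.2 CPM at 12 days and 4.67, 0.965 and 3.57 CPM at 6 days, a log2 FC of 2.27 (SE 0.64) with adjusted p = 0.564. RT1-N3 stood at 33.1, 41.2 and 38.7 CPM against 18.5, 12.6 and 23.4 CPM, a log2 FC of 1.06 (SE 0.31) with adjusted p = 0.564. All 12-day libraries exceeded all 6-day libraries in both, as the rule for leading genes required. For RT1-T24-2 the day difference at 10 mg/mL was of like size, with a log2 FC of 1.95, beside -0.31 in controls and 0.29 at 5 mg/mL. The RT1 family is polymorphic and its members resemble each other, so the assignment of reads to 1 symbol is uncertain.

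Genes of lipid-laden macrophages leaned the other way. Of 21 members, all tested, 16 had a lower estimate at 12 days, and the median log2 FC was -0.58. The groups did not overlap in 6 members that were lower, beside 4.94% of all genes, and in 1 that was higher. Unadjusted p was under 0.05 in 7 lower members, beside 3.2% of all genes, and in 2 higher members, and none passed adjustment. The list's median between the days was -0.15 in controls, 0.04 at 10 mg/mL and -0.12 at 5 mg/mL. It depended on 1 library, since it was -0.23 without 6-day replicate 3 and between -0.76 and -0.45 without any other. Without both that library and 12-day replicate 2 it was -0.34. In bulk tissue, fewer macrophages and less RNA per macrophage cannot be told apart.

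Gpnmb, a membrane glycoprotein of lysosome-rich macrophages, stood at 157, 104 and 168 CPM at 12 days and 227, 349.7 and 741 CPM at 6 days. All 12-day libraries were below all 6-day libraries, and 6-day replicate 3 was by far the highest. The log2 FC was -1.62 (SE 0.43) with adjusted p = 0.564, and -0.83 without both libraries. Npc2, which carries cholesterol out of the lysosome, had 837, 529.7 and 1133 CPM at 12 days and 1186, 1644 and 3223 CPM at 6 days. Of the named genes lower at 12 days it had the smallest p, with a log2 FC of -1.28 (SE 0.32) that became -0.52 without both libraries. Soat1, which stores cholesterol as esters, had 27.9, 19.6 and 25.7 CPM against 38.8, 49.6 and 56.5 CPM, a log2 FC of -0.99 (SE 0.27). Fabp5, a fatty acid carrier, had 162, 84.2 and 200.5 CPM against 229, 380.2 and 445 CPM, a log2 FC of -1.24 (SE 0.35), and -0.75 without both libraries. Plin2, the coat protein of lipid droplets, had 87.3, 71.9 and 115 CPM against 135, 187 and 125 CPM and a log2 FC of -0.70 (SE 0.21). Here 6-day replicate 3 was the lowest of its group, and the estimate without both libraries was -0.67. None of these 5 genes had overlapping groups. Npc2 and Soat1 were not members of the list, and the rule that named them required groups without overlap.

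The lysosomal proteases were not uniform. Cathepsin S (Ctss) had 141, 133 and 130.2 CPM at 12 days and 175, 194 and 290.4 CPM at 6 days, cathepsin D (Ctsd) 648, 417 and 767 CPM and 838, 1074 and 1093 CPM, and cathepsin B (Ctsb) 404, 432 and 455 CPM and 476, 533 and 804 CPM, each lower in all 12-day libraries. Cathepsin L (Ctsl) was higher in all 12-day libraries, at 162, 190.4 and 188 CPM against 149, 79.3 and 80.9 CPM, with a log2 FC of 0.81 (SE 0.34). Trem2, a lipid-sensing receptor of these macrophages, had 3.76, 12.8 and 9.15 CPM against 9.54, 12.9 and 37.3 CPM with overlapping groups. Mmp12, the macrophage elastase, was low and scattered, at 3.56, 12.1 and 2.44 CPM against 5.89, 1.21 and 31.4 CPM, and its log2 FC of -1.10 turned to 0.79 without 6-day replicate 3 and was -0.21 without both libraries. Fabp4, which fat cells and capillaries also express, had 14.6, 175 and 23.4 CPM against 19.1, 20 and 17.2 CPM, where 12-day replicate 2 alone stood out. Trem2, Ctsb, Ctsd and Ctsl were named after their values were seen.

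**Figure D2:**
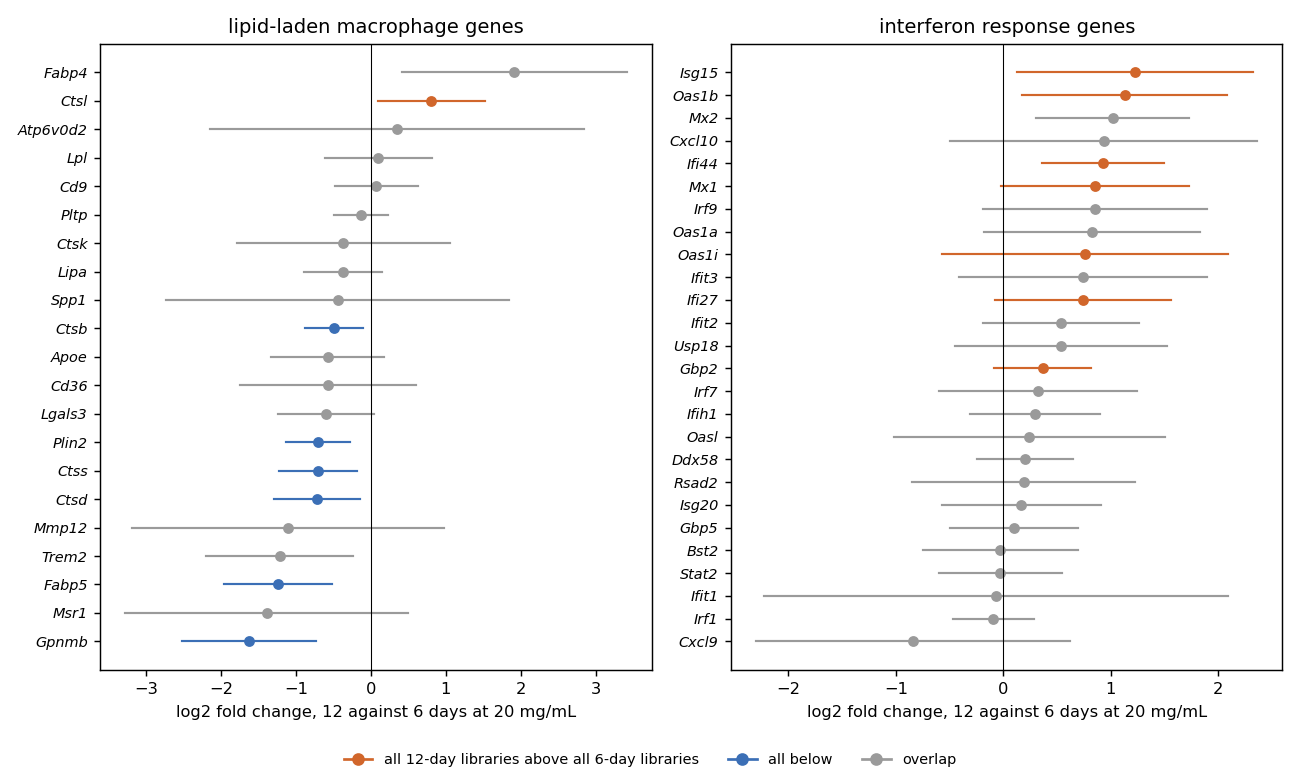
Log2 fold change from 6 to 12 days at 20 mg/mL (horizontal axes) of each tested member of 2 gene lists, with 95% intervals from the edgeR fit, and colour showing whether the 3 and 3 libraries overlap. In the lipid-laden macrophage list Gpnmb is lowest and 16 of 21 members lie below 0, and in the interferon list 21 of 26 lie above 0, most with intervals that include 0.

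The macrophage identity list had 10 of 14 tested members lower at 12 days and a median log2 FC of -0.26, beside 0.04 in controls, -0.18 at 10 mg/mL and -0.15 at 5 mg/mL. Of these, 2 were at an unadjusted p under 0.05, beside 3.2% of all genes, and none passed adjustment. The groups did not overlap in 2 members, both lower, beside 4.94% of all genes. Cd68, a lysosomal macrophage marker, had 29.9, 21.3 and 34.7 CPM at 12 days and 39.8, 41.3 and 115 CPM at 6 days, a log2 FC of -1.19 that became -0.33 without both libraries. Chi3l1, a secreted chitinase-like protein, had 74, 85.3 and 59.9 CPM against 63.8, 258 and 175 CPM, with 1 6-day library inside the 12-day range. Myo1f, Fes, Slc7a7 and Ly6i, which follow, were leading genes by p and not members of that list. Myo1f, a myosin of white blood cells, had 22, 22.6 and 20.3 CPM against 26.6, 54.2 and 69.3 CPM, a log2 FC of -1.21 (SE 0.31) and adjusted p = 0.564. The 12-day libraries lay close together, below the control means of 24.5 ± 1.23 CPM at 6 days and 25.6 ± 5.54 CPM at 12 days (SD, n = 3). Fes, a myeloid tyrosine kinase, had 10.5, 11.3 and 14.4 CPM against 19.1, 25.9 and 30.8 CPM, a log2 FC of -1.06 (SE 0.28). Slc7a7, an amino acid transporter, had 34.6, 23.6 and 33.7 CPM against 37.8, 49.5 and 142 CPM, and its log2 FC of -1.32 became -0.35 without both libraries. Ly6i had 352, 82.8 and 246 CPM against 589.8, 625 and 813 CPM, where 12-day replicate 2 was the lowest.

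Complement, antigen presentation and allergic macrophage genes gave smaller or less even differences. C2, of the classical complement pathway, had 87.7, 56.2 and 88.6 CPM at 12 days and 93.4, 164 and 185 CPM at 6 days, a log2 FC of -0.93 (SE 0.28) that was -0.54 without both libraries, and the complement receptor C5ar1 had 24.5, 13.6 and 16.6 CPM against 27.2, 28.7 and 38 CPM. Both were lower in every 12-day library, while the complement list of 20 had a median of -0.12, and -0.39 without both libraries. The MHC class II and dendritic cell genes, which show peptides to helper T cells, were lower in 8 of 10 members, with a median of -0.37, beside 0.45 in controls, 0.08 at 10 mg/mL and 0.27 at 5 mg/mL. The median rested on single libraries, at -0.07 without 6-day replicate 3, -0.19 without 12-day replicate 3 and -0.62 without 12-day replicate 2. None of the 10 was free of overlap, whereas 9.68% of all genes were, a share too small to set 10 genes apart. Unadjusted p was under 0.05 in 2 lower members, beside 3.2% of all genes. RT1-Db1, a class II chain, had 505, 759 and 456 CPM against 802, 724 and 1204 CPM, a log2 FC of -0.67 (SE 0.25), and RT1-DMa, which loads peptide, 38, 45.4 and 50.2 CPM against 58.3, 45.7 and 99 CPM. Retnla, made by macrophages and airway cells in allergic inflammation, had 570.2, 143 and 116 CPM against 757, 342 and 2200.1 CPM, and its highest value was in 6-day replicate 3. It had the lowest estimate of the type 2 and eosinophil list. That list had a median of -0.05 over 8 tested genes, 3 higher and 5 lower.

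Surfactant and other type II cell genes were lower at 12 days in 10 of 12 members tested, with a median log2 FC of -0.48, beside -0.04 in controls, 0.02 at 10 mg/mL and 0.07 at 5 mg/mL. The groups did not overlap in 3 members, all lower, beside 4.94% of all genes. The median was -0.30 without 12-day replicate 2, the library with the least Sftpc, and -0.18 without both libraries. Sftpa1, surfactant protein A, stood at 5683, 1854 and 6640.2 CPM at 12 days and 7583, 8842 and 9249.5 CPM at 6 days. All 12-day libraries were below all 6-day libraries, but 12-day replicate 2 was well below the others, and the log2 FC of -0.86 (SE 0.31) became -0.41 without both libraries. Napsa, a protease that processes surfactant protein B, had 680.5, 276 and 962 CPM against 1035, 1044 and 1098 CPM. Lpcat1, which makes the saturated phospholipid of surfactant, had 177, 77.1 and 136 CPM against 161, 217 and 364 CPM with overlapping groups. Sftpc itself overlapped, with a log2 FC of -0.55 (SE 0.32) and adjusted p = 0.881, and -0.34 without both libraries. Muc1, a mucin of the cell surface named after its values were seen, was the remaining member without overlap, at 257, 209 and 238 CPM against 257, 304 and 372 CPM. Its highest 12-day and lowest 6-day values were the same as rounded here. Among the 12 type I cell genes the median was -0.08, or 0.02 without both libraries, and Cldn18, a tight junction protein of both alveolar cell types, had 459.6, 190.4 and 343 CPM against 518, 696 and 493 CPM, a log2 FC of -0.78 (SE 0.26).

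Fatty acid synthesis genes were divided, with 8 of 16 tested members on each side and a median of -0.06, or -0.23 without both libraries. Unadjusted p was under 0.05 in 5 lower members, beside 3.2% of all genes, and in 1 higher, beside 3.03%. Scd1, which puts the double bond into saturated fatty acids, had 164, 67.3 and 55 CPM at 12 days and 228, 192 and 177 CPM at 6 days, with a log2 FC of -1.06 (SE 0.39) and adjusted p = 0.682. In the control lungs it had 108, 123 and 200.1 CPM at 6 days and 306, 240.3 and 237 CPM at 12 days, so the order of the days was opposite. Its log2 FC was 0.86 in controls, 1.33 at 10 mg/mL and 0.76 at 5 mg/mL. The test of the difference between the day change at 20 mg/mL and that in controls gave -1.93 (SE 0.54), which did not pass adjustment. Scd2, a close relative, had 384, 201 and 268 CPM against 403, 430.2 and 444 CPM, a log2 FC of -0.58 (SE 0.21) that was -0.35 without both libraries. Acly, which supplies the acetyl units, had 180.3, 107 and 191 CPM against 211, 274 and 253 CPM, a log2 FC of -0.63 (SE 0.21) that was -0.38 without both libraries. For Fasn, the fatty acid synthase, and Elovl1, an elongase, the groups overlapped and the log2 FC was -0.60 and -0.70, or -0.26 and -0.42 without both libraries. Among 18 cholesterol synthesis genes the median was -0.14, and Fdps, an enzyme of the isoprenoid steps, had 42.2, 34.9 and 45.9 CPM against 63.3, 75.2 and 91.4 CPM, a log2 FC of -0.90 (SE 0.27).

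The leading genes higher at 12 days included receptors, a kinase and transcription factors. Il11ra1, the receptor for interleukin 11, had 142, 249 and 176 CPM at 12 days and 109.8, 107 and 93.5 CPM at 6 days, a log2 FC of 0.87 (SE 0.22) with adjusted p = 0.564, and 0.56 without both libraries. Klf10, an immediate-early transcription factor induced by TGF-beta, had 129.7, 84.6 and 84.9 CPM against 67, 36 and 42.5 CPM, a log2 FC of 1.04 (SE 0.27). Control lungs held 41.4 ± 3.58 CPM at 6 days and 42.4 ± 7.84 CPM at 12 days (SD, n = 3), so all 12-day libraries at 20 mg/mL lay above the control levels. The difference of the day changes from controls was 1.01 (SE 0.38), which did not pass adjustment. Its relative Klf4, which restrains growth in epithelium and endothelium, had 436, 354 and 301 CPM against 271, 200.2 and 164 CPM, a log2 FC of 0.78 (SE 0.22). Klf10 and Klf4 belong to the immediate-early list, in which 15 of 23 tested members were higher and 8 lower. The median of that list was 0.08, or 0.23 without both libraries. Txk, a kinase of T cells, had 20.8, 24 and 23.9 CPM against 9.95, 6.52 and 6.25 CPM, a log2 FC of 1.61 (SE 0.42), and the T and NK cell list had a median of 0.01, or 0.18 without both libraries. Control levels of Txk were 13.8 ± 4.53 CPM at 6 days and 16.9 ± 0.853 CPM at 12 days, so the 6-day libraries lay below both control means and the 12-day libraries above both.

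Epha4, a receptor for ephrins that guide cell position, had 37.4, 56 and 43.1 CPM at 12 days and 25.8, 27.2 and 24.8 CPM at 6 days, a log2 FC of 0.81 (SE 0.21) with adjusted p = 0.564. The controls had 57.5, 57.1 and 43.6 CPM at 6 days and 39.4, 39 and 49 CPM at 12 days, so the 6-day libraries at 20 mg/mL were below every control library and the 12-day libraries near or within the control range. Sox9, a transcription factor of distal airway progenitors and cartilage, had 77.2, 99 and 68.6 CPM against 46.9, 30.1 and 28.8 CPM, a log2 FC of 1.21 (SE 0.34). C1qtnf2, a secreted protein of the adiponectin family, had 51.5, 69.8 and 77.5 CPM against 40.8, 39.7 and 17.1 CPM, a log2 FC of 1.03 (SE 0.30) that was 0.68 without both libraries. Slc25a32, the mitochondrial folate carrier, had 28.5, 40.3 and 24 CPM against 13.4, 14.7 and 20.5 CPM, a log2 FC of 0.92 (SE 0.25), and Smtnl2 had 29.3, 43.5 and 39.9 CPM against 20.1, 22 and 20.7 CPM, a log2 FC of 0.84 (SE 0.24). Sox18, a transcription factor of blood and lymph vessel endothelium, was scarce, with 36, 13 and 20 reads at 12 days and 1, 1 and 1 reads at 6 days, and no fold is given. The 16 endothelial genes had a median of -0.07, or 0.04 without both libraries. All 6 tested lymphatic and venous endothelial genes were higher, with a median of 0.49, or 0.26 without both libraries. Between the same days that median was 0.51 in controls, 0.26 at 10 mg/mL and 0.31 at 5 mg/mL. Mybphl, a muscle protein of the heart atria, had 2.77, 25.1 and 1.34 CPM against 0.609, 0.241 and 0.383 CPM, with its highest value in the library richest in heart RNA, and its log2 FC of 4.56 was 2.31 without that library and 2.28 without both libraries.

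**Figure D3:**
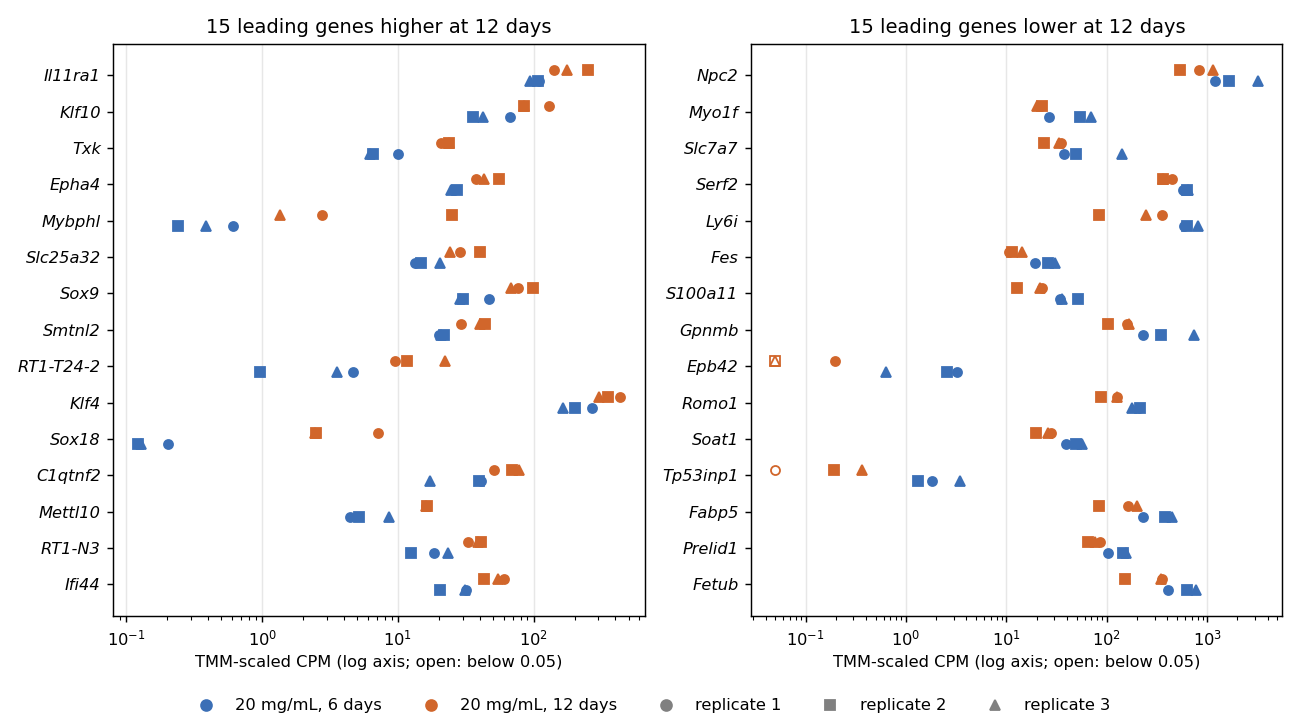
Level in TMM-scaled CPM (horizontal log axes) of the 15 named genes with the smallest p in each direction, for 3 libraries at 6 days (blue) and 3 at 12 days (orange) at 20 mg/mL, the marker shape giving the replicate. The groups do not overlap in any of the 30, by the rule that chose them, and most differ by less than 10-fold, the scarce Sox18, Epb42 and Tp53inp1 and the heart gene Mybphl being wider.

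Other leading genes lower at 12 days had varied roles. Serf2 had 441, 361 and 362 CPM at 12 days and 571, 622 and 641 CPM at 6 days, a log2 FC of -0.66 (SE 0.17). Romo1, a mitochondrial inner membrane protein, had 125, 86.9 and 127 CPM against 207, 213 and 177 CPM, a log2 FC of -0.82 (SE 0.22). Prelid1, a mitochondrial lipid carrier, had 85.9, 65 and 76.6 CPM against 102, 145 and 155 CPM, and S100a11, a calcium-binding protein, 22.6, 12.7 and 21.7 CPM against 34.3, 52 and 36 CPM, with log2 FC of -0.82 and -1.10. The nuclear-coded oxidative phosphorylation list had a median of 0.01 over 71 genes, or -0.09 without both libraries, beside -0.41 at 10 mg/mL and -0.39 at 5 mg/mL. The 76 cytosolic ribosomal protein genes had a median of -0.03, beside -0.07 in controls, -0.59 at 10 mg/mL and -0.63 at 5 mg/mL. Within that list, Rplp0 had 541, 615 and 615 CPM against 777, 783 and 907 CPM and Rpl10 308, 254 and 427 CPM against 475, 448 and 514 CPM, both lower in all 12-day libraries. Fetub, a secreted protease inhibitor, had 356, 150.3 and 346 CPM against 402, 625 and 770.0 CPM, a log2 FC of -1.08 (SE 0.31) that was -0.55 without both libraries. Tp53inp1, a p53 target, was scarce, with 0, 1 and 3 reads at 12 days and 9, 11 and 27 reads at 6 days.

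The lists of toxicant response genes had medians near 0. Cyp1a1, the enzyme induced by the aryl hydrocarbon receptor, had 13.1, 10.7 and 6.35 CPM at 12 days and 16.6, 8.93 and 5.87 CPM at 6 days, with a log2 FC of -0.06 and an interval of -1.59 to 1.48, and it was -0.40 without both libraries. Nqo1, a quinone reductase under NRF2, had 41.4, 45.8 and 34 CPM against 36.8, 41.8 and 36.1 CPM, and its interval of -0.37 to 0.53 was narrower. Hmox1, heme oxygenase, had 46.1, 34.1 and 63.8 CPM against 47.3, 64.1 and 96.8 CPM, a log2 FC of -0.53 (SE 0.34) that was -0.02 without both libraries. In the aryl hydrocarbon receptor list the median over 7 tested genes was 0.14, or -0.06 without both libraries, with Lrat, a retinol-storing enzyme, at 19, 77.5 and 25.5 CPM against 28, 14.2 and 10.2 CPM and its highest value in 12-day replicate 2. Over 30 NRF2 antioxidant genes it was 0.02, with 15 on each side. The groups did not overlap in 2 of these that were higher, beside 4.74% of all genes. They did not overlap in 2 that were lower, beside 4.94% of all genes. Pgd, of the pentose phosphate pathway, had 239, 225 and 224 CPM against 244, 367 and 399.8 CPM, and Ftl1, the ferritin light chain, 398, 376 and 454 CPM against 461, 787 and 582 CPM, both lower in all 12-day libraries. Gclc, of glutathione synthesis, had 11.5, 20.7 and 9.03 CPM against 10.2, 5.43 and 6.76 CPM with overlap.

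Cytokine genes gave a mixed picture. Il1b had 28.3, 43.5 and 51.6 CPM at 12 days and 57.3, 63.6 and 55.3 CPM at 6 days, lower in all 12-day libraries, with a log2 FC of -0.51 (SE 0.34) and adjusted p = 0.905. Tnf (1.98, 1.53 and 1.22 against 3.05, 1.69 and 1.28 CPM), the neutrophil chemokine Cxcl1 (13.5, 1.92 and 11.6 against 16.6, 3.74 and 9.06 CPM) and the monocyte chemokine Ccl2 (4.75, 17.1 and 10.9 against 8.53, 0.483 and 20.8 CPM) all overlapped, and the log2 FC of each turned its sign when 1 library was left out. The median over 15 tested cytokine and NF-kappaB genes was -0.33, but -0.18 without 6-day replicate 3 and 0.00 without both libraries. Nfkb2 had 21, 30.1 and 24.3 CPM against 25, 38.9 and 52.3 CPM. The neutrophil list had a median of -0.36 over 10 genes, beside 0.39 in controls, -0.33 at 10 mg/mL and -1.21 at 5 mg/mL. The mast cell list had 0.38 over 14 genes, beside -0.55, -1.18 and -0.81 in the same groups, and it was 0.01 without 12-day replicate 3 and 0.15 without both libraries. Timp1, an inhibitor of matrix proteases often raised in injured lung, had 49.3, 51.4 and 61.3 CPM against 85.5, 90.2 and 86 CPM, a log2 FC of -0.69 (SE 0.20) with adjusted p = 0.564. Its 3 values within each day lay close together, and control means were 69 ± 15.6 CPM and 71 ± 10.7 CPM (SD, n = 3) at 6 and 12 days. Serpinb1a, an inhibitor of neutrophil elastase, had 124, 108 and 139 CPM against 245, 141 and 267 CPM, a log2 FC of -0.81 (SE 0.28).

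Glucocorticoid and clock genes varied among themselves. Zbtb16, a transcription factor strongly induced by glucocorticoids, had 96, 34.1 and 69.1 CPM at 12 days and 65.2, 63.4 and 64.6 CPM at 6 days, while the controls had 5.3 ± 3.95 CPM and 4.74 ± 1.32 CPM (SD, n = 3) at 6 and 12 days. All 6 libraries at 20 mg/mL thus lay above both control means. Between the days the log2 FC was 0.04 (SE 0.83), or 0.36 without both libraries. With so wide an SE, the values cannot show that the level was the same at both days. Fkbp5, a chaperone of the glucocorticoid receptor, had 138, 44.5 and 101 CPM against 77.6, 60.1 and 76.9 CPM, a log2 FC of 0.40 (SE 0.38) that was 0.02 without 12-day replicate 1 and 0.79 without both libraries. In both, 12-day replicate 2 was the lowest of the 6. Cebpd, a transcription factor of the acute phase, had 142, 106 and 135 CPM against 84.5, 59.9 and 84.1 CPM, all higher at 12 days, with a log2 FC of 0.75 (SE 0.28). Controls held 243 ± 41.8 CPM and 202 ± 65.4 CPM (SD, n = 3), and the difference of the day changes was 1.02 (SE 0.39), which did not pass adjustment. Nfkbia, the inhibitor of NF-kappaB, had 1068, 1062 and 1118 CPM against 726, 979 and 701 CPM, again all higher at 12 days, and 1793 ± 180.5 and 1721 ± 212 CPM in controls. The list's median over 17 genes was 0.21, but 0.02 without 12-day replicate 1 and 0.36 without both libraries. Klf15 had 31.9, 12.8 and 27.7 CPM against 16.9, 7.6 and 13 CPM. Per2, a repressor in the circadian clock, had 42, 45.1 and 23.2 CPM against 12.8, 19.4 and 22.5 CPM, a log2 FC of 1.00 (SE 0.35), with controls at 39.8 ± 13.6 CPM and 42.7 ± 3.17 CPM. The clock output gene Tef had a log2 FC of 0.51 and the opposing repressor Nfil3 one of -0.60, and the median over 14 clock genes was 0.31. The sources used here do not give the time of day of collection.

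Proliferation genes had mixed signs. Of 34 cell cycle genes 25 were lower at 12 days, with a median of -0.29 that turned to 0.13 without 6-day replicate 3 and was -0.08 without both libraries. Pcna, the clamp of DNA replication, had 77.8, 78 and 94.8 CPM at 12 days and 66.4, 50.4 and 45 CPM at 6 days, higher in all 12-day libraries, and Mcm4, of the replicative helicase, 25.3, 37.8 and 29.3 CPM against 25.6, 13.8 and 17.7 CPM. Kif20a, a kinesin of cell division, was lower in all 12-day libraries, at 8.71, 14.2 and 13.8 CPM against 17.3, 16.7 and 27.2 CPM. Among the linker histones, made mainly in S phase, were Hist1h1b with 0.594, 1.53 and 2.2 CPM against 4.47, 6.76 and 5.36 CPM and Hist1h1d with 98, 94.4 and 147 CPM against 190.4, 162 and 137 CPM, the latter with overlap. The chaperone cofactor Stip1 had 38.8, 33.8 and 34.3 CPM against 44.9, 50.7 and 58.6 CPM, and Sdf2l1, of the endoplasmic reticulum, 39, 40.1 and 41.9 CPM against 45.3, 75.5 and 57 CPM. Medians were 0.06 over 23 heat shock genes and -0.22 over 20 ER stress genes.

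The lists with the widest differences followed single libraries. Heart muscle genes had a median of 4.12, beside 1.91 in controls, with all 12 tested members higher and 9 at an unadjusted p under 0.05, beside 3.03% of all genes, yet no member was free of overlap, and the median was -2.36 without 12-day replicate 2 and 8.92 without 6-day replicate 3. Without both it was -0.02. Tnnt2, cardiac troponin T, had 1.58, 197 and 0.854 CPM at 12 days and 4.47, 0.121 and 7.02 CPM at 6 days, and Ryr2, the cardiac calcium channel, 1.19, 161 and 0.244 CPM and 0.812, 3.74 and 4.34 CPM. Club and goblet secretory genes had a median of 1.39, which became -1.45 without 12-day replicate 2 and -0.11 without both libraries. Their leading secretory gene Scgb1a1 had 13344, 9099.5 and 10008 CPM against 11231, 3104 and 7069.6 CPM with overlap, and Bpifa1, a secreted protein of the upper airway, had 0.792, 7874 and 5 CPM at 12 days and 149, 0.121 and 466 CPM at 6 days. Krt15, a keratin of basal airway cells, had 6.93, 108 and 5.25 CPM against 15.6, 4.83 and 29.1 CPM. Aldh1a1, a retinal dehydrogenase, was the only member of the secretory list without overlap, at 326, 342 and 365 CPM against 265, 295 and 199 CPM.

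Smooth muscle, fat and B cell lists also moved with these libraries. Their medians were 0.53, 0.98 and 0.53, and 0.04, -0.07 and -0.29 without both libraries. Cnn1, a smooth muscle calponin, had 86.5, 504 and 56.7 CPM against 83.7, 25.3 and 86.1 CPM, Col1a1, the collagen of fibroblasts, 853, 8682 and 759 CPM against 1229, 937 and 2271 CPM, and Pou2af1, a B cell coactivator, 6.93, 52 and 20.3 CPM against 9.14, 10.3 and 16.2 CPM, with 12-day replicate 2 the highest in each. Tie1, an endothelial receptor, was higher in all 12-day libraries, at 176, 160.1 and 203 CPM against 126, 142 and 134 CPM. Red blood cell and globin genes were lower at 12 days in 9 of 9 members, with a median of -1.06 and 6 at an unadjusted p under 0.05, beside 3.2% of all genes. The median was -0.49 without 6-day replicate 2 and -1.52 without 6-day replicate 3. They were lower at 12 days in the other groups too, with medians of -0.81 in controls, -1.31 at 10 mg/mL and -1.60 at 5 mg/mL. Alas2, of heme synthesis, had 156, 60 and 106 CPM against 249.7, 371 and 66.1 CPM, and Ahsp, the chaperone of alpha globin, 10.7, 6.33 and 11.7 CPM against 18.5, 59.3 and 4.98 CPM, and 6-day replicate 3 was below the 12-day range for Ahsp. Epb42, a red cell membrane protein, had 1, 0 and 0 reads at 12 days and 16, 21 and 5 reads at 6 days. The share of blood in each piece of lung was not measured apart from these genes.

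**Figure D4:**
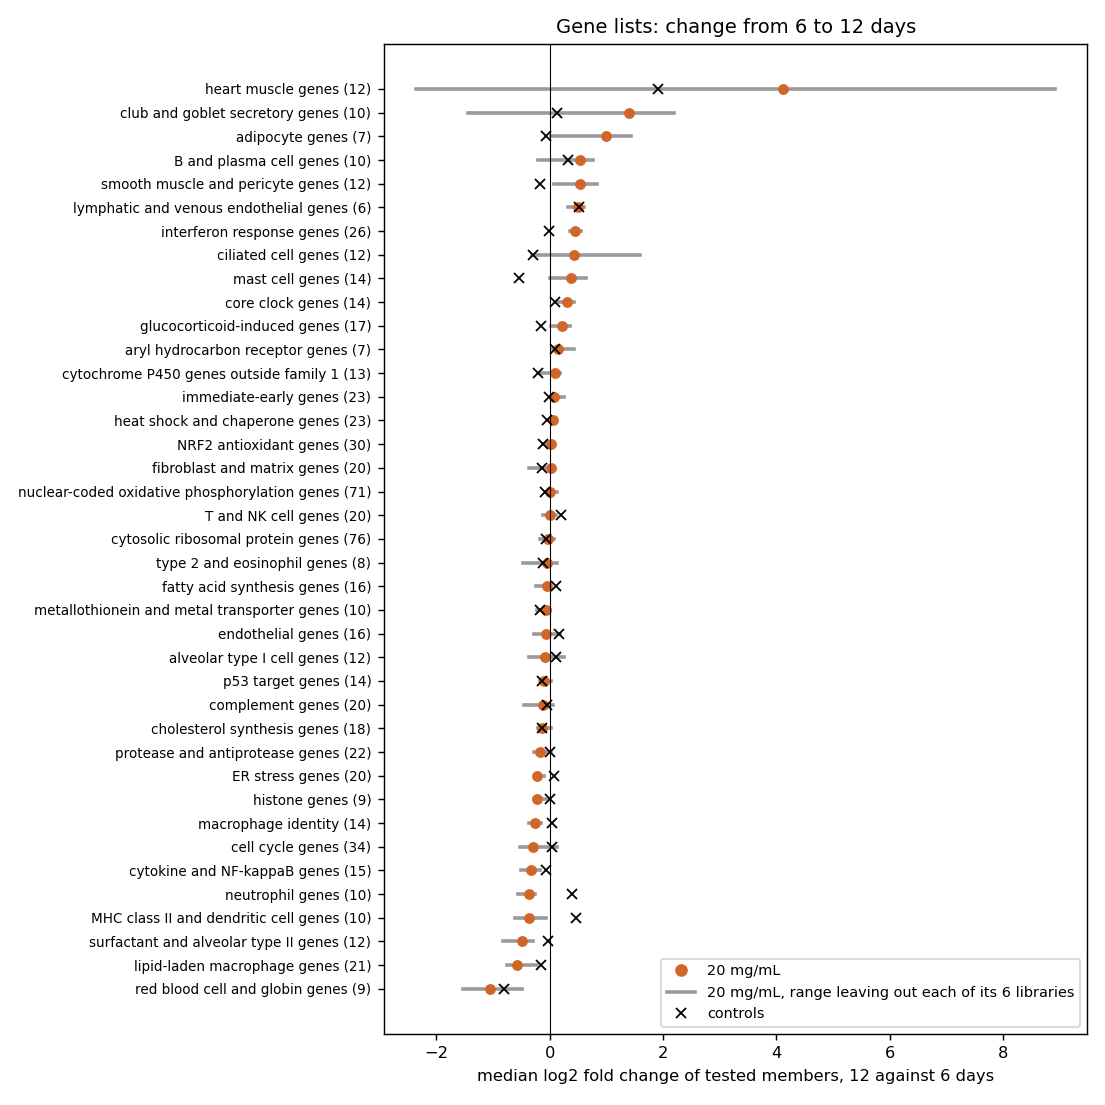
Median log2 fold change of the tested members of each gene list from 6 to 12 days (horizontal axis) at 20 mg/mL (orange points) and in controls (crosses), with grey lines from the lowest to the highest median when each of the 6 libraries at 20 mg/mL is left out, and the number of tested members in brackets. Heart muscle genes span the widest range, while the interferon list stays between 0.36 and 0.54 and the controls' value for it is -0.01.

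The test of whether the day change at 20 mg/mL differed from that in controls called 0 of 11421 genes (0%) by edgeR, with a smallest adjusted p of 0.99992, and 435 (3.81%) had an unadjusted p under 0.05. Against 10 mg/mL 0 genes were called (0%) and 478 (4.19%) had an unadjusted p under 0.05, and against 5 mg/mL 0 (0%) and 923 (8.08%). The day change itself called 0 genes in controls, at 10 mg/mL and at 5 mg/mL, with 281 (2.46%), 510 (4.47%) and 790 (6.92%) genes at an unadjusted p under 0.05. Voom listed 1573, 1851 and 1433 genes there, against 580 at 20 mg/mL, so the order of the groups by this count depends on the tool. Leaving out 1 library gave 265 to 370 in controls, 190 to 1820 at 10 mg/mL and 341 to 2094 at 5 mg/mL, both of the latter highest without 6-day replicate 3 and lowest without 6-day replicate 1. For the differences from controls, 10 mg/mL and 5 mg/mL, voom listed 680, 958 and 1342 genes, and leaving out 1 library gave 323 to 662, 335 to 1178 and 564 to 1794. DESeq2 called 19 genes between the days at 5 mg/mL, 1 in the difference from 5 mg/mL and 0 in each of the other comparisons. These comparisons share the 6 libraries at 20 mg/mL or their controls, so their lists are not independent.

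The genes that led the difference from controls had opposite orders of the days at 20 mg/mL and in controls. They were taken by the smallest p for that difference among genes without overlap at 20 mg/mL. The rule thus favours opposite orders and fixes the lack of overlap at 20 mg/mL. Iars, the isoleucine tRNA ligase, had 36.8, 56.4 and 49.9 CPM at 12 days and 28.6, 33.3 and 26 CPM at 6 days at 20 mg/mL, while the controls had 24.3, 32.1 and 34 CPM and 68.9, 43.1 and 34.6 CPM. Its difference of day changes was 1.40 (SE 0.37). Mettl10, a protein methyltransferase, had 16, 16.3 and 16.1 CPM against 4.47, 5.19 and 8.55 CPM, a difference from controls of 2.02 (SE 0.57). Rbm12, an RNA-binding protein, had 35, 44.7 and 47.8 CPM against 33.9, 23.9 and 18.9 CPM and a difference of 1.26 (SE 0.36), and Hat1, a histone acetyltransferase, 21.6, 23.4 and 29.3 CPM against 15.6, 14.6 and 17.7 CPM and a difference of 1.10 (SE 0.32). In the other direction, Srd5a1, the steroid 5-alpha-reductase, had 7.92, 7.67 and 9.88 CPM against 18.1, 15.3 and 16.8 CPM at 20 mg/mL, with 15.2, 12.6 and 11.2 CPM against 3.44, 8.81 and 10.4 CPM in controls. Wls, which carries Wnt proteins to the cell surface, had 25.3, 15.5 and 28.2 CPM against 40.8, 40.9 and 35 CPM, and 39.2, 31.4 and 32.6 CPM against 24.7, 22 and 27.4 CPM in controls. Clec4a1, a lectin of myeloid cells, had 6.93, 6.71 and 3.66 CPM against 9.95, 8.93 and 16.5 CPM, and 9.5, 11.2 and 9.85 CPM against 5.87, 6.1 and 6.05 CPM in controls. For all 3 the 12-day libraries were lower at 20 mg/mL and higher in controls, with no overlap in either, and the differences were -1.76, -1.23 and -1.80. RT1-Db1, named from the MHC class II list and not by that rule, followed the same order with overlap, and its difference was -1.19 (SE 0.36). For Ifi44, Mx1 and Gpnmb the differences from controls were 0.98, 1.29 and -1.19, and none passed adjustment. When each library was left out they ranged from 0.68 to 1.17, from 0.65 to 1.57 and from -1.50 to -0.58, and that of Gpnmb was -0.39 without both libraries.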

How the data were processed

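RNA of rat lung was sequenced with a Lexogen QuantSeq kit, which reads transcript ends, per the labels' protocols. Bowtie2, bedtools and build rn6 were used per the submitters' processing notes. The sources used here give no versions, annotation, filters or strand setting. The authors deposited raw read counts per gene symbol, with 17048 rows per library. A repeated symbol kept its row with the highest total, which left out 167 rows with 0.772% of counts. Library totals were 4.80e+06 to 1.11e+07 counts. Genes passing filterByExpr (11421) were fitted with the quasi-likelihood method of edgeR 4.0.16 in R 4.3.3, with TMM scaling and 8 group means over 24 libraries (16 residual degrees of freedom). Tests were two-sided, with Benjamini-Hochberg adjustment over all genes and a threshold of 0.05. Log2 fold changes and 95% intervals are from this fit, and the scripts were tested on simulated data. DESeq2 1.42.0, limma 3.58.1, other scalings and filters, a replicate block and leaving out libraries were the alternatives.

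The 15 leading genes in each direction had a mean of at least 1 CPM, no overlap between the libraries and the smallest p. Up to 3 members of each of 42 gene lists, 5 genes each way for the difference from controls and a set of fixed names were added. The 5 genes each way met the same level and overlap filters at 20 mg/mL and had the smallest p for that difference. One gene of the interferon list is not reported here and was left out of that list. Members and lists were chosen with earlier results of these data known. Between the days at 20 mg/mL, total count, genes detected at equal depth and the shares of globin, ribosomal RNA and ribosomal protein counts gave exact two-sided permutation p of 0.4 to 0.9, where 0.1 is the smallest possible. Promoters are from RefSeq (GRCr8), and no rn6 coordinates were used.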

Additional observations from a re-analysis of the deposited data

How the results depend on the processing

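Between 12 and 6 days at 20 mg/mL, 0 genes were called under each of 20 alternatives, and the smallest adjusted p of any named gene was 0.128. The number at an unadjusted p under 0.05 was 711 in the main test. It was 468 with only the groups compared, 208 in a test against a 1.5-fold change and 952 with detected genes as a covariate. It was 386 without 12-day replicate 2 and 6-day replicate 3, and 484 to 905 when each library was left out. It was 484 without 12-day replicate 2. Counts of calls moved from 0 only at the lower concentrations or in the difference from 5 mg/mL. DESeq2 called 19 genes between the days at 5 mg/mL and 1 (Slc26a4) in the difference from 5 mg/mL. When libraries were left out, calls ranged from 0 to 1 at 5 mg/mL (Tcf20, without 6-day replicate 3) and from 0 to 1 at 10 mg/mL (RT1-A2, without 6-day replicate 2). These genes were named after their values were seen, and the causes were not tested.

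Same-numbered 12-day and 6-day libraries at 20 mg/mL had correlations of 0.07, -0.30 and -0.30 in their deviations from the group means. Differently numbered pairs had -0.21 to 0.39. Deviations within a group of 3 are tied to each other, so these values cannot show whether replicate numbers pair the libraries. With a replicate block, 0 genes were called and 730 had an unadjusted p under 0.05, or 271 with only the groups compared. The latter block called 7 genes between the days at 10 mg/mL.

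Of 114 genes named, 14 turned their log2 fold change under at least 1 alternative, and none of these was a call. With voom, Bpifa1 was -0.82, Krt15 -0.29, Col1a1 -0.099, Ryr2 -0.86, Cxcl1 0.37 and Ager 0.060. With the replicate block and only the groups compared, Bpifa1 was -4.76, Krt15 -0.17, Zbtb16 -0.065 and Cyp1a1 0.015. With detected genes as a covariate, Cxcl1 was 0.081. Without 12-day replicate 2 and 6-day replicate 3, Bpifa1 was -4.585, Krt15 -0.74, Col1a1 -0.42, Ryr2 -1.78, Tnnt2 -0.87, Fabp4 -0.033, Nqo1 -0.059, Cxcl1 0.33 and Ager 0.071. Leaving out each library gave -6.03 to 5.15 for Bpifa1, -1.44 to 1.98 for Krt15, -0.87 to 1.69 for Col1a1, -2.14 to 4.72 for Ryr2, -1.67 to 4.97 for Tnnt2, -0.31 to 0.36 for Zbtb16, -0.35 to 0.43 for Cyp1a1, -0.021 to 0.19 for Nqo1, -0.58 to 0.079 for Tnf, -0.44 to 1.33 for Ccl2, -0.50 to 0.50 for Cxcl1, -2.10 to 0.79 for Mmp12 and -0.39 to 0.31 for Ager. Tnf, Cxcl1, Ccl2, Mmp12 and Cyp1a1 stood mostly under 20 CPM and scattered between libraries, and the share of counting error in this scatter was not tested.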
